A study of Mus musculus with 9 samples.

Results

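The 43 genes described here are interferon-stimulated genes of the mouse together with the gene of interferon beta. By role they comprise 1 ligand (Ifnb1), 4 transcription factors (Irf1, Irf7, Irf9, Stat2), 3 sensors of viral RNA (Ifih1, Ddx58, Dhx58), 27 targets of type I interferon and 8 GTPases that interferon gamma induces. They were chosen by gene name from the 54532 genes of the deposited expression table, and all 43 names were found there.

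RNA was sequenced from BV2 cells, which are a single immortalized line of mouse microglia, in 3 groups of 3 libraries to ask how oxygen-glucose deprivation (OGD) changes the transcriptome and what A-485, which blocks the acetyltransferase activity of P300, alters in deprived cells. Ctrl cells were kept in DMEM with 10% serum. OGD cells were kept in low-glucose DMEM with 4% serum in a hypoxic chamber with 4% oxygen, and OGD + A-485 cells received the inhibitor as well. A duration of 24 h, a dose of 50 μM A-485 and its addition when the deprivation began are given for the experiments that precede the sequencing and are not repeated for it, and no group received A-485 without OGD. The sample labels number the libraries 1 to 3 within a group and do not say whether they came from separate cultures, so the p-values measure the spread between these libraries, which may be technical.

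Type I interferons, such as interferon beta, bind a receptor made of Ifnar1 and Ifnar2, which acts through the kinases Jak1 and Tyk2 to form a complex with Stat2 and Irf9 that binds the interferon-stimulated response element (ISRE) in target promoters. Interferon gamma binds Ifngr1 and Ifngr2 and acts mainly through the gamma-activated site (GAS), and its targets in mouse macrophages and microglia include immunity-related GTPases and guanylate-binding proteins that attack vacuoles holding microbes. RNA sensors and Toll-like receptors start the production of interferon, and negative regulators such as Socs1 and Usp18 limit the response.

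OGD was accompanied by lower levels of several type I targets (Ifit2, Rsad2, Usp18) and of the GTPases Igtp and Irgm1. Levels of the sensors Ddx58 and Dhx58 and of the type I targets Ifi204 and Oas3 were higher. None of these changes with OGD reached a log2 fold change of 1. With A-485 on top of OGD, Ifitm3 fell from about 70.7 to 1.15 FPKM, Oas3, Stat2 and Ddx58 fell by less, and Trim30a, Parp14 and Ifih1 rose. Isg15, a common marker of interferon signalling, was called in no comparison with all 9 libraries in the fit on group means, and Ifnb1 was at or near 0 in every library. Levels are in FPKM (fragments per kilobase of gene length, scaled to sequencing depth), and in a bulk measurement fewer cells with an RNA and less of it per cell cannot be told apart.

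Of the 43 members, 34 reached a mean of 0.2 FPKM over the 9 libraries and were tested. The 9 that did not (Ifnb1, Ifit1, Ifit3, Mx1, Ifi44, Zbp1, Gbp2, Gbp5 and Iigp1) stayed at or below 0.563 FPKM, or 14 reads, in every library. Among the 34, Ifih1, Mx2 and Cmpk2 had a group mean under 0.2 FPKM. A gene was called higher or lower in a limma fit of all genes if its p-value before adjustment was below 0.01 and its log2 fold change lay beyond 0.5 in that direction. Fold changes are differences of log2(FPKM + 0.1), which understates the change of genes with low FPKM, SE is their standard error, and adjusted p-values (Benjamini-Hochberg) cover all 16123 genes tested.

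Between OGD and Ctrl, 4 of the 34 tested members were called higher (11.8%, against 11.2% of all genes tested) and 9 lower (26.5%, against 9.81%). In OGD + A-485 against OGD, 9 members were called higher (26.5%, against 12.2%) and 6 lower (17.6%, against 13.4%). OGD + A-485 against Ctrl gave 10 members higher (29.4%, against 17.0%) and 8 lower (23.5%, against 16.6%). Members had to pass the filter on low values to be counted, the groups share samples between comparisons, and whether the members differ as a set from other genes was not tested. If a call asks for a log2 fold change beyond 1 and an adjusted p-value under 0.05, the limma fit gives 0 members higher (against 4.89% of all genes) and 2 lower (against 2.05%) with OGD, which are Rtp4 and Cmpk2, the latter not called before. With A-485 against OGD it gives 5 higher (against 5.47%) and 3 lower (against 6.36%).

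**Figure D1:**
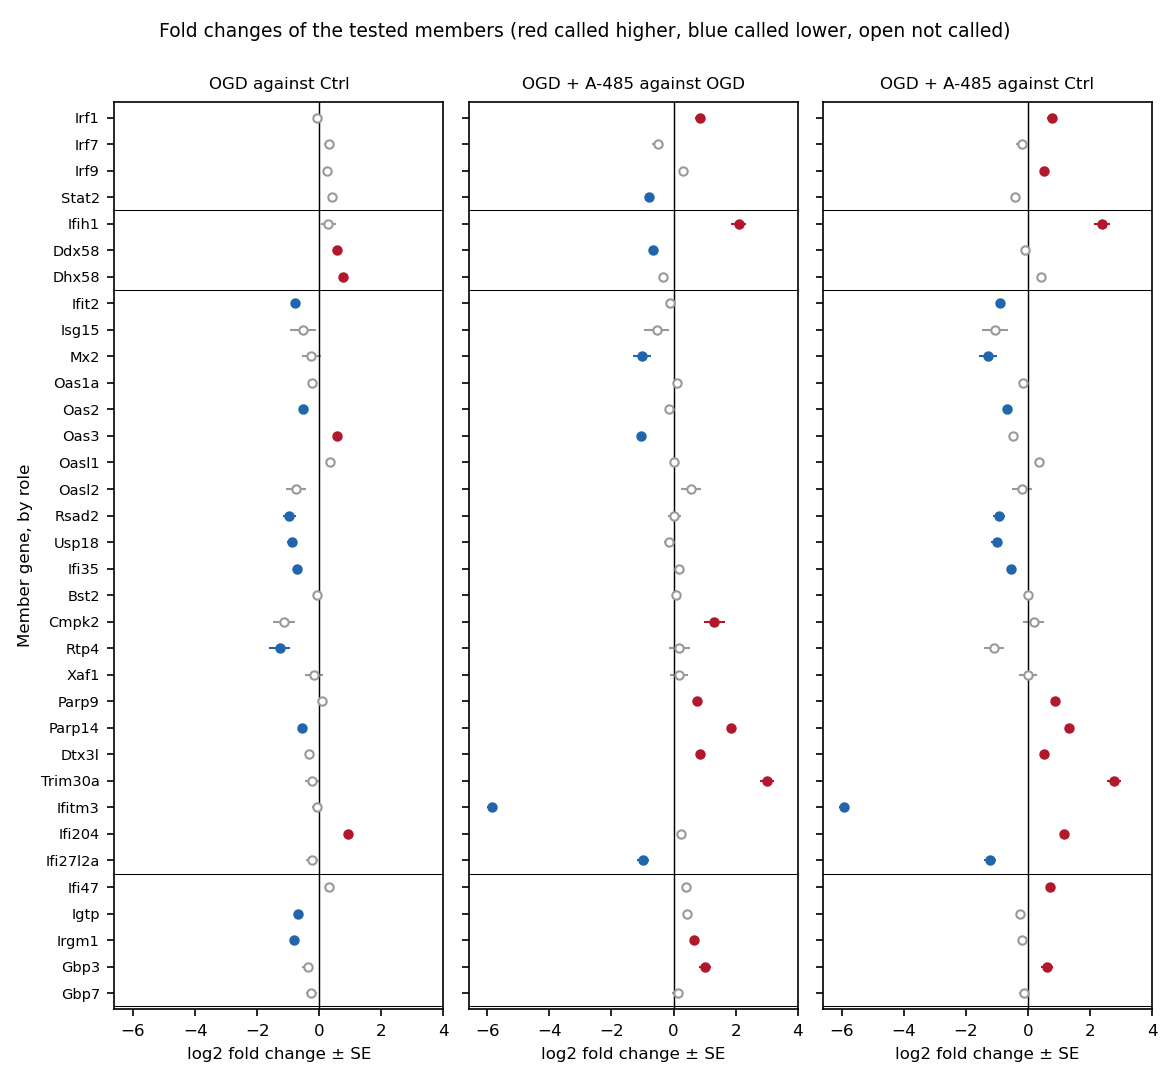
Log2 fold change of each tested member, with its standard error as a bar, in the 3 comparisons, ordered by role from transcription factors at the top to GTPases at the bottom. Red points were called higher, blue points lower and open points neither. In OGD + A-485 against OGD, Ifitm3 at -5.86 and Trim30a at 3.02 lie farthest from 0.

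The members spanned a wide range of levels. Bst2, which tethers virus particles to the cell surface, was the most abundant at 112 to 148 FPKM, and its groups overlapped in all 3 comparisons. Ifitm3 followed in Ctrl and OGD, and Oas1a and Oasl1 lay between 14.4 and 22.1 FPKM. The mean over all libraries exceeded 1 FPKM for 26 members and 10 FPKM for 5. Iigp1 was listed at 0 in all 9 libraries.

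**Figure D2:**
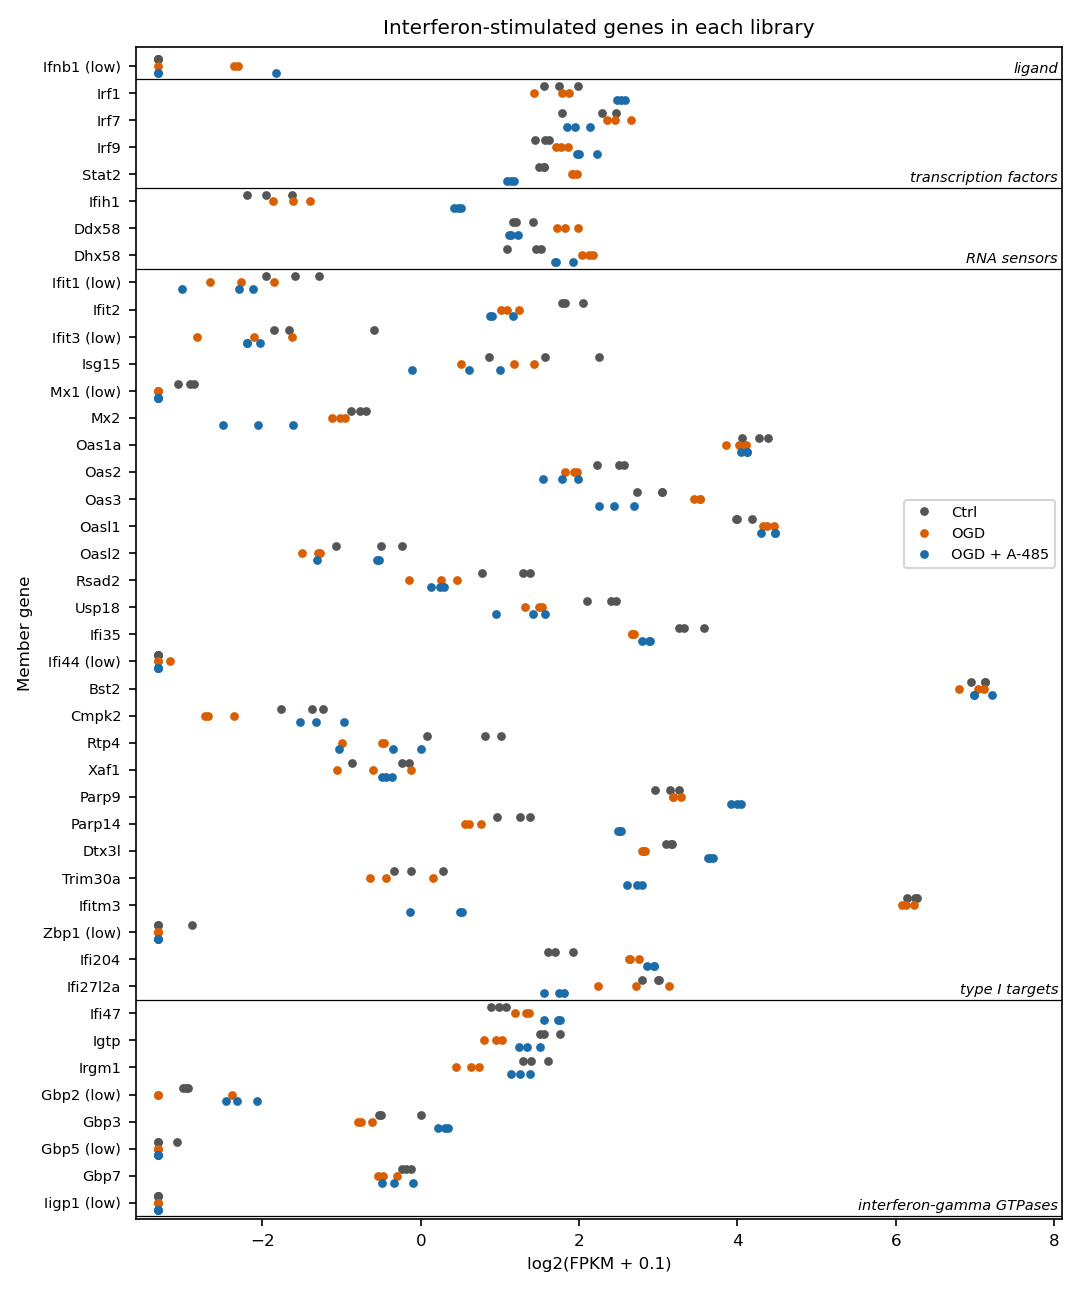
Log2(FPKM + 0.1) of each member in each library, grouped by role, with Ctrl in grey, OGD in orange and OGD + A-485 in blue; members marked low were not tested. For Ifitm3, the 3 OGD + A-485 points lie far to the left of the other 6, and for Trim30a, Parp14 and Ifih1 they lie to the right.

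Within the Ctrl group, library 3 was the lowest of its group for 20 of the 22 tested type I targets (90.9%, against 35.6% of all genes), and library 1 was the highest for 15 (against 32.3% of all genes). Library 1 was also the highest of its group for 14 type I targets in OGD (against 30.3%) and for 13 in OGD + A-485 (against 38.0%). The count of 9 members called lower in OGD against Ctrl was 7 without Ctrl library 1 (against 9.32% of all genes). It was 6 without Ctrl library 2 (Oas2, Rtp4 and Parp14 lost, against 9.33%). It was 9 without Ctrl library 3 (against 8.99%) and 7 without OGD library 3 (against 9.82%). Of the 4 called higher, Oas3 was lost without Ctrl library 3, where 10.6% of all genes were called higher. What set the libraries of a group apart was not tested.

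Microglial genes were expressed in the line. Of 12 genes that mark microglia and macrophages, 11 exceeded 1 FPKM on average, with Cd68 the highest and P2ry12 near 0. Their summed level was 457, 465 and 447 FPKM in Ctrl, 582, 587 and 601 FPKM in OGD and 1088, 1068 and 1074 FPKM in OGD + A-485, so these markers differed between the groups as well, and their part in the results was not tested. Markers of neurons summed to at most 0.676 FPKM, of astrocytes to 0.155 (Aqp4 at 0), of oligodendrocytes to 2.36 (Mog and Olig1 at 0), of fibroblasts to 0.0391 and of T and NK cells to 0.153. The share of reads on mitochondrial genes was 1.82%, 1.93% and 2.20% in Ctrl, 1.14%, 1.28% and 1.17% in OGD and 1.66%, 2.01% and 1.85% in OGD + A-485, and its part in the results was not tested.

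Many of the members' promoters hold the letters of the element that the interferon complex reads. A window from 250 bases before to 50 bases after the start was available for 31 of the 43 members, in RefSeq annotation of GRCm38.p6. The core of the ISRE was searched as GAAA, any 2 bases and GAAA on either strand, and it occurred in 18 of the 31 members (58.1%) and in 3.99% of the promoters of 27025 genes. The GAS, searched as TTCNNNGAA, occurred in 9 of 31 (29.0%), against 9.55%. Among type I targets 9 of 17 held the ISRE core, and among the GTPases 6 of 7. All 4 members called lower with A-485 against OGD that have a window hold it, as do 4 of 7 called higher and 6 of 14 called neither. In OGD + A-485 against Ctrl, it occurs in 2 of 4 called lower, 3 of 7 called higher and 9 of 14 called neither. A match describes letters, not a binding site. The windows shown belong to members that fell with A-485 (Ifitm3, Oas3, Stat2), that rose (Trim30a, Ifih1), to the GTPase Irgm1 and to Isg15; ISRE cores are in capitals, written on the gene's strand, where a core on the opposite strand reads TTTC, any 2 bases and TTTC. They lie at chr7:141010695-141010994 (minus strand), chr5:120777610-120777909 (minus), chr10:128270248-128270547 (plus), chr7:104465144-104465443 (minus), chr2:62646206-62646505 (minus), chr11:48871371-48871670 (minus) and chr4:156200769-156201068 (minus).
Ifitm3: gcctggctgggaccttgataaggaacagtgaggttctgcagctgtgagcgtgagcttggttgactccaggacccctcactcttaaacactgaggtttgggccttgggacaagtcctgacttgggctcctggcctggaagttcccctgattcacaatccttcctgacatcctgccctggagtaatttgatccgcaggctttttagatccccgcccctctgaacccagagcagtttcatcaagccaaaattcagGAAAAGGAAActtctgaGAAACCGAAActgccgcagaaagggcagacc
Oas3: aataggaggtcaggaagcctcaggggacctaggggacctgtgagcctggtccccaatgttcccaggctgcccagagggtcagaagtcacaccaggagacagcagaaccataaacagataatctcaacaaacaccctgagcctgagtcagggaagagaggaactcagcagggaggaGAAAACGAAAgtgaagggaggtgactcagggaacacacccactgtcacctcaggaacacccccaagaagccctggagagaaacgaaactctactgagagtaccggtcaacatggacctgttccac
Stat2: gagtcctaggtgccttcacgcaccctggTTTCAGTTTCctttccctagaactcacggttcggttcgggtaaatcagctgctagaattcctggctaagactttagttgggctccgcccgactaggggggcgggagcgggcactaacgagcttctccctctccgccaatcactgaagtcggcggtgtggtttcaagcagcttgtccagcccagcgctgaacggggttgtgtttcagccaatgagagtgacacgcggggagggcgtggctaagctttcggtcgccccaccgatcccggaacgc
Trim30a: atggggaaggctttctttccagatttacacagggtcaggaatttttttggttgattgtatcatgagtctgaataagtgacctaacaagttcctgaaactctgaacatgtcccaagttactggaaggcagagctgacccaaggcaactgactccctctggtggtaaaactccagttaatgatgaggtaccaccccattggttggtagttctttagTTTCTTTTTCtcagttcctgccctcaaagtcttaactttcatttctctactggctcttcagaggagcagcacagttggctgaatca
Ifih1: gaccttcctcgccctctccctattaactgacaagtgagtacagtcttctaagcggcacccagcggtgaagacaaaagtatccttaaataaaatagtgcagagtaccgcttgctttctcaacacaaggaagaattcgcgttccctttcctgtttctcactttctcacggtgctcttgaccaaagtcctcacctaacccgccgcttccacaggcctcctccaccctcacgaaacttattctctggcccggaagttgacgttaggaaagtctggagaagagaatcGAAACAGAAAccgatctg
Irgm1: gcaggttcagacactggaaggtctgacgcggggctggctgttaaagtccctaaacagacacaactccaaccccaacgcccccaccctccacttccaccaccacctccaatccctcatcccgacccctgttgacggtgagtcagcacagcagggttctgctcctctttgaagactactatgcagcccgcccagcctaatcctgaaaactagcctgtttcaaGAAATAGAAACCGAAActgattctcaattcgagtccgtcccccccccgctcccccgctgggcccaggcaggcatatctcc
Isg15: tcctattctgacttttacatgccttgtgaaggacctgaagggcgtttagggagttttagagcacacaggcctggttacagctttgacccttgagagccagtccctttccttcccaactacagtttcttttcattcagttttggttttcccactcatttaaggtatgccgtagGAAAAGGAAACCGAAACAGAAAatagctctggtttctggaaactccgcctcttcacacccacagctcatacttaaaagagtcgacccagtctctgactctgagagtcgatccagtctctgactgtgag

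The place of the cores within these windows differed. In Ifitm3 they begin 2 and 19 bases after it, in Ifih1 32 bases after it, and in Irgm1 30 and 24 bases before it. Isg15 holds 3 overlapping cores that begin 78, 72 and 66 bases before the start. Oas3 holds 1 at 75 bases, Stat2 1 at 222 bases and Trim30a 1 at 36 bases before the start, and a further window of Trim30a holds 1 core as well.

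Ifnb1, the only ligand among the members, was listed at 0, 0 and 0 FPKM in Ctrl, at 0, 0.102 and 0.0948 FPKM in OGD and at 0.183, 0 and 0 FPKM in OGD + A-485. These values stand for 4 reads in all 9 libraries together, so no fold change is given, and a difference was not detectable at this depth. Ifng, Ifna1, Ifna2 and Ifna4, other interferon genes, were listed at 0 in all 9 libraries.

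The receptors for both kinds of interferon were expressed in every library, and most rose with A-485. Ifnar2, a subunit of the type I receptor, measured 9.06, 9.25 and 9.18 FPKM in Ctrl, 7.93, 8.63 and 8.35 FPKM in OGD and 15.6, 15.4 and 15.4 FPKM in OGD + A-485. All OGD + A-485 libraries lay above all others, and the OGD libraries lay a little below Ctrl. Against OGD the level was 1.86 times as high (log2 fold change 0.89, SE 0.04, adjusted p = 7.09e-07), and against Ctrl it rose as well (log2 fold change 0.75, SE 0.04, adjusted p = 9.52e-07). Its partner Ifnar1 measured 10.8, 11.0 and 10.2 FPKM in Ctrl, 11.3, 12.5 and 11.7 FPKM in OGD and 18.2, 18.5 and 18.2 FPKM in OGD + A-485. The 3 groups were separate, with OGD + A-485 highest, and the rise against OGD was 1.55-fold (log2 fold change 0.63, SE 0.05, adjusted p = 1.06e-05).

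The interferon gamma receptor chain Ifngr1, which binds the ligand, measured 7.78, 7.001 and 7.31 FPKM in Ctrl, 7.86, 7.99 and 8.51 FPKM in OGD and 13.5, 13.4 and 13.0 FPKM in OGD + A-485. Again the groups were separate, with OGD + A-485 highest (log2 fold change 0.71, SE 0.05, adjusted p = 9.34e-06 against OGD). Ifngr2, its signalling partner, measured 15.6, 15.5 and 17.4 FPKM in Ctrl, 16.7, 16.9 and 15.8 FPKM in OGD and 27.6, 29.5 and 29.1 FPKM in OGD + A-485. Ctrl and OGD overlapped and OGD + A-485 lay above both (log2 fold change 0.80, SE 0.05, adjusted p = 4.88e-06 against OGD). Il10rb, which serves the receptors of interferon lambda and interleukin 10, measured 6.29, 5.58 and 6.79 FPKM in Ctrl, 6.15, 5.59 and 6.27 FPKM in OGD and 15.5, 16.1 and 16.7 FPKM in OGD + A-485. Ctrl and OGD overlapped here as well, and the rise with A-485 was 2.68-fold against OGD (log2 fold change 1.41, SE 0.08, adjusted p = 1.47e-06) and 2.59-fold against Ctrl (log2 fold change 1.36, SE 0.08, adjusted p = 9.88e-07).

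Of the 9 receptor and kinase genes, 2 were called higher (22.2%, against 11.2% of all genes) and 0 lower (against 9.81%) in OGD against Ctrl by limma, and 5 had an adjusted p-value under 0.05, as had 7300 of all 16123 genes. The kinase Tyk2, 1 of those 2, measured 4.25, 4.72 and 4.05 FPKM in Ctrl, 7.08, 6.62 and 7.51 FPKM in OGD and 8.09, 7.10 and 7.29 FPKM in OGD + A-485. Ctrl lay below the other 2 groups, which overlapped (log2 fold change 0.69, SE 0.08, adjusted p = 0.000144 for OGD against Ctrl). With A-485 against OGD, 5 of the 9 were called higher (55.6%, against 12.2%) and 0 lower, and the median log2 fold change was 0.63, against 0.01 over all genes tested. In OGD + A-485 against Ctrl, 7 were called higher (77.8%, against 17.0%). Ifnar1, Ifnar2, Ifngr2 and Il10rb lie within 200 kb of each other on chromosome 16. Among the 12 tested genes within 200 kb of Ifnar1, the other 3 of these were called higher with A-485 (against 12.2% of all genes). None was called lower (against 13.4%), and the median was -0.01. Ifnar1 itself is not counted in that number.

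**Figure D3:**
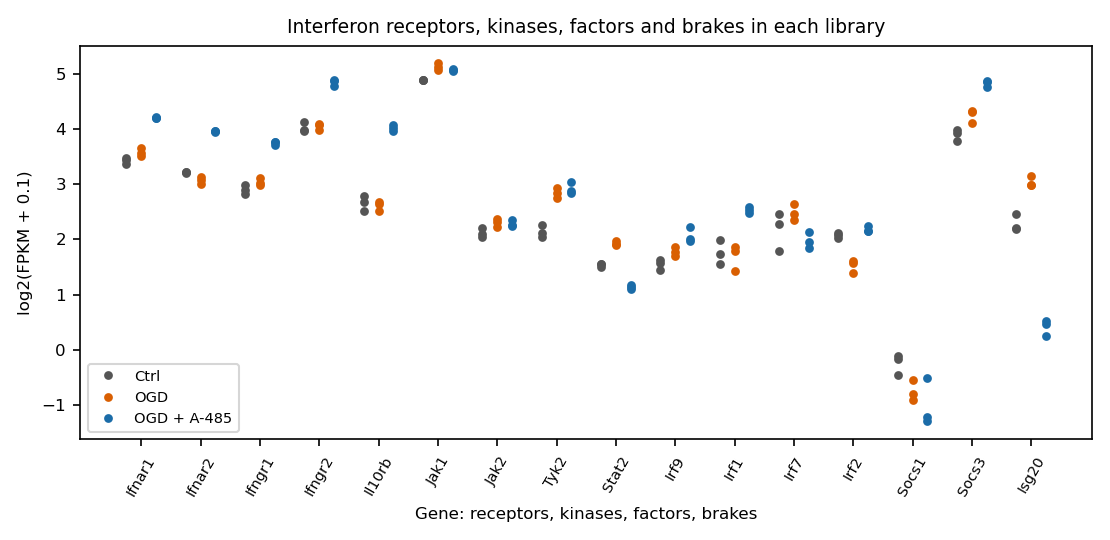
Log2(FPKM + 0.1) of interferon receptors, kinases, transcription factors, negative regulators and the RNA exonuclease Isg20 in each library, with Ctrl in grey, OGD in orange and OGD + A-485 in blue. The OGD + A-485 points of Ifnar1, Ifnar2, Ifngr1, Ifngr2 and Il10rb lie above those of the other groups, and those of Isg20 lie below them.

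Of the 4 transcription factors, Irf1 rose and Stat2 fell with A-485 against OGD (1 of 4 each way, against 12.2% and 13.4% of all genes), and none was called in OGD against Ctrl (against 11.2% and 9.81%). Irf1, which interferon gamma induces and which activates many of the members, measured 2.84, 3.25 and 3.87 FPKM in Ctrl, 3.56, 2.59 and 3.34 FPKM in OGD and 5.90, 5.68 and 5.49 FPKM in OGD + A-485. All 3 OGD + A-485 libraries lay above the other 6, and the Ctrl and OGD libraries overlapped. The rise was 1.80-fold against OGD (log2 fold change 0.84, SE 0.14, adjusted p = 0.000931) and 1.72-fold against Ctrl (log2 fold change 0.77, SE 0.14, adjusted p = 0.00122). OGD against Ctrl gave no call (log2 fold change -0.07, SE 0.14, adjusted p = 0.726).

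Stat2, a part of the complex that type I interferon forms, measured 2.83, 2.85 and 2.71 FPKM in Ctrl, 3.83, 3.68 and 3.65 FPKM in OGD and 2.03, 2.16 and 2.10 FPKM in OGD + A-485. The groups did not overlap, with OGD highest and OGD + A-485 lowest. Its fall with A-485 against OGD was log2 fold change -0.80, SE 0.07, adjusted p = 2.17e-05. The difference between OGD and Ctrl did not reach the fold change threshold (log2 fold change 0.40, SE 0.07, adjusted p = 0.00163), nor did that between OGD + A-485 and Ctrl (log2 fold change -0.40, SE 0.07, adjusted p = 0.00108). The latter was called when FPKM were rescaled to total reads (-0.51) or when the median deviation of the 50 nearest genes on the chromosome was removed (-0.52).

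Irf9, the DNA-binding part of the same complex, measured 2.97, 2.87 and 2.63 FPKM in Ctrl, 3.54, 3.32 and 3.15 FPKM in OGD and 3.91, 4.60 and 3.84 FPKM in OGD + A-485. The groups were again separate, but here OGD + A-485 was the highest and Ctrl the lowest. The factor was called in OGD + A-485 against Ctrl (log2 fold change 0.53, SE 0.09, adjusted p = 0.00115), and not in OGD against Ctrl (log2 fold change 0.24, SE 0.09, adjusted p = 0.0698) or OGD + A-485 against OGD (log2 fold change 0.29, SE 0.09, adjusted p = 0.0295). That call was lost without Ctrl library 3 (0.48) and without OGD + A-485 library 2 (0.45), with rescaling to total reads (0.41), with a pseudocount of 1 (0.42), and when the median of neighbouring genes was removed (0.04). Ctrl library 3 held 2.63 FPKM and OGD + A-485 library 2 held 4.60 FPKM. Reads of Irf9 are uncertain over the 123 exonic bases that it shares with Rnf31.

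Irf7, which amplifies the production of type I interferon, measured 5.43, 4.78 and 3.34 FPKM in Ctrl, 6.18, 5.39 and 5.01 FPKM in OGD and 4.31, 3.76 and 3.49 FPKM in OGD + A-485. The OGD + A-485 libraries lay below the OGD libraries, while Ctrl overlapped with both. It was not called against OGD (log2 fold change -0.51, SE 0.17, adjusted p = 0.0348), although an adjusted p-value under 0.05 as the threshold would call it. Removing the median of neighbouring genes (-0.61) and voom weights (-0.52) gave a call. Without Ctrl library 3, at 3.34 FPKM, the same fold change was called, since the estimate of the spread is shared by all groups. OGD against Ctrl (log2 fold change 0.31, SE 0.17, adjusted p = 0.18) and OGD + A-485 against Ctrl (log2 fold change -0.20, SE 0.17, adjusted p = 0.354) gave no call.

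Of the 3 RNA sensors, 2 were called higher in OGD against Ctrl (66.7%, against 11.2% of all genes). Dhx58, known as LGP2, which regulates the other sensors, measured 2.65, 2.77 and 2.02 FPKM in Ctrl, 4.27, 4.44 and 3.998 FPKM in OGD and 3.68, 3.17 and 3.14 FPKM in OGD + A-485. OGD lay above OGD + A-485 and both above Ctrl, without overlap. The rise with OGD was 1.71-fold (log2 fold change 0.76, SE 0.12, adjusted p = 0.00105). Ddx58, known as RIG-I, which detects short viral RNA, measured 2.58, 2.15 and 2.20 FPKM in Ctrl, 3.43, 3.88 and 3.19 FPKM in OGD and 2.11, 2.07 and 2.25 FPKM in OGD + A-485. The OGD libraries lay above all others, and the Ctrl and OGD + A-485 libraries overlapped. It rose 1.51-fold with OGD (log2 fold change 0.58, SE 0.11, adjusted p = 0.00195) and fell with A-485 against OGD (log2 fold change -0.68, SE 0.11, adjusted p = 0.00067). With a pseudocount of 1 the rise was 0.44 and was not called.

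Ifih1, known as MDA5, which detects long double-stranded RNA, measured 0.119, 0.223 and 0.159 FPKM in Ctrl, 0.279, 0.226 and 0.174 FPKM in OGD and 1.29, 1.23 and 1.32 FPKM in OGD + A-485. The 3 OGD + A-485 libraries stood apart from the other 6, which overlapped. The mean with A-485 was 5.66 times that of OGD (log2 fold change 2.09, SE 0.25, adjusted p = 0.000141) and 7.66 times that of Ctrl (log2 fold change 2.39, SE 0.25, adjusted p = 4.51e-05). These levels rest on 60, 73 and 468 reads summed over the Ctrl, OGD and OGD + A-485 groups. Its Ctrl mean lay under the 0.2 FPKM of the filter.

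Of the 27 type I targets, 22 were tested, and 7 were called lower in OGD against Ctrl (31.8%, against 9.81% of all genes), namely Ifit2, Oas2, Rsad2, Usp18, Ifi35, Rtp4 and Parp14. Without Ctrl library 2 the last 2 and Oas2 were not called, which leaves 4 (against 9.33% of all genes). The 2 called higher, Ifi204 and Oas3, are 9.09%, near the 11.2% of all genes. The median log2 fold change was -0.30, against 0.01 over all genes, and ran from -0.47 (without OGD library 1) to -0.20 (without Ctrl library 1) when a library was left out. Rsad2, or viperin, an enzyme that makes a chain-terminating nucleotide, measured 2.35, 2.51 and 1.61 FPKM in Ctrl, 1.27, 1.10 and 0.804 FPKM in OGD and 1.12, 1.08 and 0.992 FPKM in OGD + A-485. The Ctrl libraries lay above the other 6, and the OGD and OGD + A-485 libraries overlapped. Rsad2 fell with OGD (log2 fold change -0.96, SE 0.21, adjusted p = 0.00471) and was as far below Ctrl with A-485 (log2 fold change -0.93, SE 0.21, adjusted p = 0.00404). Usp18, which removes Isg15 from proteins and restrains the type I receptor, measured 5.42, 5.18 and 4.18 FPKM in Ctrl, 2.79, 2.40 and 2.73 FPKM in OGD and 2.87, 2.56 and 1.84 FPKM in OGD + A-485. Here too Ctrl lay above both other groups, which overlapped. The Ctrl mean was 1.87 times the OGD mean (log2 fold change -0.87, SE 0.17, adjusted p = 0.00243), and the fall of OGD + A-485 against Ctrl was log2 fold change -1.01, SE 0.17, adjusted p = 0.000714.

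Ifit2, which binds translating complexes and viral RNA, measured 4.04, 3.43 and 3.33 FPKM in Ctrl, 2.02, 1.92 and 2.26 FPKM in OGD and 2.14, 1.74 and 1.77 FPKM in OGD + A-485. It fell with OGD (log2 fold change -0.77, SE 0.12, adjusted p = 0.000776), again with overlap between OGD and OGD + A-485. Rtp4, a receptor transporter protein that interferon induces, measured 1.65, 1.91 and 0.956 FPKM in Ctrl, 0.627, 0.613 and 0.4003 FPKM in OGD and 0.899, 0.683 and 0.391 FPKM in OGD + A-485. Every Ctrl library lay above every OGD library, with the nearest at 0.956 and 0.627 FPKM. The fall (log2 fold change -1.28, SE 0.34, adjusted p = 0.0128) lost its call without Ctrl library 1 (-1.19), without Ctrl library 2 (-1.09) and without OGD library 3 (-1.11), and when the median of neighbouring genes was removed (-1.11). OGD + A-485 also lay below every Ctrl library, without a call (log2 fold change -1.09, SE 0.34, adjusted p = 0.0209). That value was called without Ctrl library 3 (-1.37) or OGD + A-485 library 1 (-1.32), with a pseudocount of 1 (-0.59), rescaled to total reads (-1.20), with quantile normalization (-1.19), with voom weights (-1.16) and at an adjusted p-value under 0.05.

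The calls of the oligoadenylate synthase Oas2 (-0.52), chosen after its values were seen, and Parp14 (-0.55) in OGD against Ctrl were close to the threshold. Oas2 lost its call without Ctrl library 1 (-0.48) or 2 (-0.45) or OGD library 3 (-0.47), where the 3 libraries held 5.58, 5.80 and 3.45 FPKM. With a pseudocount of 1 the value of Oas2 was -0.43 and was not called. Parp14 lost its call without Ctrl library 2 (-0.46), which held 2.51 FPKM, and with a pseudocount of 1 (-0.38). Ifi35, which forms a complex with Nmi and was chosen after its values were seen, stood at 10.4 ± 1.23 FPKM in Ctrl and 6.28 ± 0.0679 FPKM in OGD (SD, n = 3; log2 fold change -0.71, SE 0.08, adjusted p = 0.000108). Since the strand setting of the counting is not stated, reads over 290 of the 1727 exonic bases of Ifi35 and 124 of the 2790 of Usp18 cannot be told apart from those of transcripts on the opposite strand, which were listed at 0.187 and 0.275 FPKM on average.

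Ifi204, a member of the family of DNA-binding proteins that includes human IFI16, went the other way. It measured 3.70, 3.13 and 2.95 FPKM in Ctrl, 6.07, 6.67 and 6.15 FPKM in OGD and 7.17, 7.57 and 7.58 FPKM in OGD + A-485. The groups did not overlap, with Ctrl lowest and OGD + A-485 highest. The rise with OGD was 1.93-fold (log2 fold change 0.93, SE 0.09, adjusted p = 3.93e-05), and with A-485 the level was 2.28 times that of Ctrl (log2 fold change 1.17, SE 0.09, adjusted p = 4.46e-06). Its family has near-identical copies between which reads may have been divided, so its level is uncertain.

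Oas3, a synthase of the short oligoadenylates that activate the nuclease RNase L, measured 8.14, 8.17 and 6.57 FPKM in Ctrl, 11.4, 10.9 and 11.4 FPKM in OGD and 6.37, 5.34 and 4.64 FPKM in OGD + A-485. The 3 groups were separate, with OGD highest and OGD + A-485 lowest. The rise with OGD (log2 fold change 0.56, SE 0.12, adjusted p = 0.00485) was not called without Ctrl library 3 (0.46), the lowest of its group. Against OGD, the level with A-485 was lower 2.06-fold (log2 fold change -1.04, SE 0.12, adjusted p = 0.00011). Against Ctrl it was not called (log2 fold change -0.48, SE 0.12, adjusted p = 0.0078), but it was without Ctrl library 3 (-0.58) or OGD + A-485 library 1 (-0.60), rescaled to total reads (-0.60) and with the median of neighbouring genes removed (-0.63). The related Oas1a (14.4 to 20.9 FPKM) and Oasl1 (15.7 to 22.1 FPKM) were called in no comparison, and Oas1a shares near-identical sequence with other Oas1 genes.

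Isg15, the ubiquitin-like modifier, measured 4.65, 2.88 and 1.72 FPKM in Ctrl, 2.60, 1.32 and 2.16 FPKM in OGD and 1.90, 1.42 and 0.826 FPKM in OGD + A-485. The libraries of a group were widely spread, and all 3 groups overlapped. OGD against Ctrl (log2 fold change -0.52, SE 0.41, adjusted p = 0.339) and OGD + A-485 against OGD (log2 fold change -0.54, SE 0.41, adjusted p = 0.311) gave no call. OGD + A-485 against Ctrl lay furthest from 0 and was not called either (log2 fold change -1.06, SE 0.41, adjusted p = 0.0517). Without Ctrl library 3, the lowest of its group at 1.72 FPKM, this value was -1.41 and was called.

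With A-485 against OGD, 5 of the 22 tested type I targets were called higher (22.7%, against 12.2% of all genes), namely Trim30a, Parp14, Cmpk2, Dtx3l and Parp9. The 4 called lower (18.2%, against 13.4%) were Ifitm3, Oas3, Mx2 and Ifi27l2a, and the median was 0.09, against 0.01 over all genes. Against Ctrl, 5 were higher (22.7%, against 17.0%), namely Trim30a, Parp14, Ifi204, Parp9 and Dtx3l. The 8 lower (36.4%, against 16.6%) were Ifitm3, Mx2, Ifi27l2a, Usp18, Rsad2, Ifit2, Oas2 and Ifi35, with a median of -0.34, against 0.02. The call of Ifi35 against Ctrl (-0.53) was lost without Ctrl library 1 (-0.43), which held 11.8 FPKM, without OGD + A-485 library 2 (-0.50), which held 6.85 FPKM, with a pseudocount of 1 (-0.48) and with quantile normalization (-0.49). The call of Mx2 against Ctrl was lost with a pseudocount of 1 (-0.37).

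Ifitm3, a membrane protein that blocks the fusion of viruses in endosomes, is a protein-coding gene at chr7:141009586-141010770 on the minus strand. It measured 75.7, 76.7 and 70.5 FPKM in Ctrl, 74.7, 69.8 and 67.6 FPKM in OGD and 0.808, 1.31 and 1.33 FPKM in OGD + A-485. Every OGD + A-485 library held a small fraction of the lowest other library, and Ctrl and OGD overlapped. The mean of OGD was 61.6 times that of OGD + A-485 (log2 fold change -5.86, SE 0.15, adjusted p = 3.36e-08), and the fall against Ctrl was log2 fold change -5.93, SE 0.15, adjusted p = 1.91e-08. The values rest on 2201, 1906 and 35 reads summed over each group. OGD against Ctrl gave -0.07.

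The related gene Ifitm2, whose start lies at -54.7 kb from that of Ifitm3, measured 88.6, 84.5 and 90.0 FPKM in Ctrl, 107, 118 and 121 FPKM in OGD and 237, 203 and 171 FPKM in OGD + A-485. Ifitm2 was higher in every OGD + A-485 library than in any other (log2 fold change 0.81, SE 0.10, adjusted p = 0.000211). Ifitm6, 6.11 kb from Ifitm3, rose too (0.58), and Ifitm1, at no more than 1.13 FPKM, was not called against OGD (0.43). These 3 genes were chosen after their values were seen. Ifitm2 and Ifitm3 are closely related, so reads can be divided between them. The sum of both was 164, 161 and 161 FPKM in Ctrl, 182, 188 and 188 FPKM in OGD and 238, 204 and 173 FPKM in OGD + A-485. The sum overlapped between OGD and OGD + A-485, and how far reads were divided between the genes was not tested. Of 19 tested genes within 200 kb of Ifitm3, 4 were called higher and 5 lower with A-485, with a median of -0.06. Over all genes 12.2% were called higher and 13.4% lower in that comparison, and a difference of the neighbourhood from all genes was not tested.

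**Figure D4:**
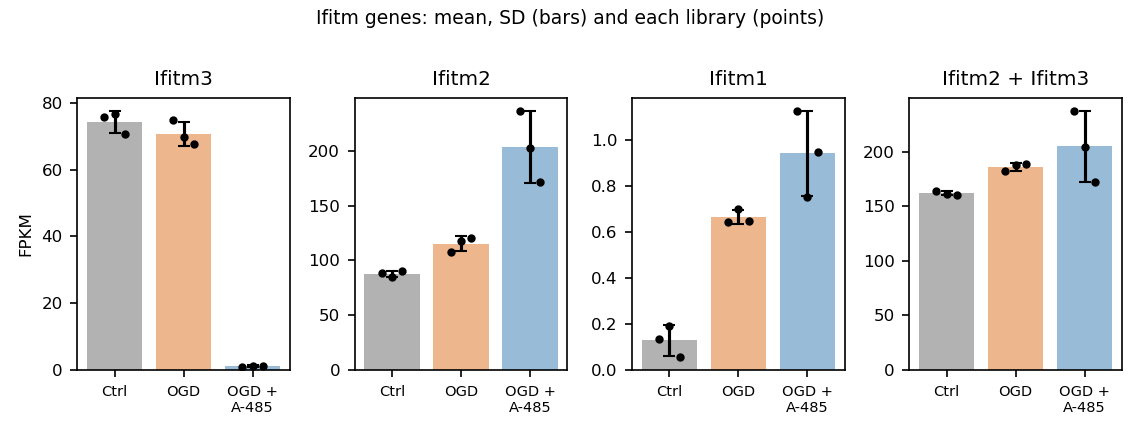
FPKM of Ifitm3, Ifitm2, Ifitm1 and the sum of Ifitm2 and Ifitm3, with the mean as a bar, the SD as an error bar and each of the 3 libraries of a group as a point. Ifitm3 drops to a mean of 1.15 FPKM with A-485 while Ifitm2 reaches 204 FPKM.

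Trim30a, a TRIM protein known to restrain Toll-like receptor signalling, lies at chr7:104409025-104465193 and measured 1.11, 0.819 and 0.691 FPKM in Ctrl, 1.01, 0.542 and 0.640 FPKM in OGD and 6.84, 6.56 and 6.01 FPKM in OGD + A-485. The OGD + A-485 libraries stood far above the other 6, which overlapped. The level was 8.84 times that of OGD (log2 fold change 3.02, SE 0.23, adjusted p = 8.06e-06) and 7.405 times that of Ctrl (log2 fold change 2.77, SE 0.23, adjusted p = 8.15e-06). Trim12c, whose start lies at -70.3 kb and which was chosen after its values were seen, went from means of 0.00626 FPKM in Ctrl and 0.00700 FPKM in OGD to 1.82 FPKM with A-485. The Trim genes of this cluster resemble each other, so reads may have been divided between them.

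Parp14, Dtx3l and Parp9 are neighbours on chromosome 16. Parp14, an ADP-ribosyltransferase, measured 2.28, 2.51 and 1.85 FPKM in Ctrl, 1.60, 1.38 and 1.43 FPKM in OGD and 5.68, 5.51 and 5.63 FPKM in OGD + A-485. The groups did not overlap, with OGD + A-485 highest and OGD lowest. A-485 was accompanied by a 3.82-fold rise against OGD (log2 fold change 1.87, SE 0.12, adjusted p = 2.75e-06) and a 2.53-fold rise against Ctrl (log2 fold change 1.31, SE 0.12, adjusted p = 1.36e-05). Dtx3l, a ubiquitin ligase that forms a complex with Parp9, measured 8.88, 8.47 and 8.95 FPKM in Ctrl, 7.03, 6.90 and 6.83 FPKM in OGD and 12.5, 12.8 and 12.3 FPKM in OGD + A-485. It rose 1.81-fold against OGD without overlap (log2 fold change 0.85, SE 0.04, adjusted p = 8.88e-07).

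Parp9 itself measured 9.48, 8.74 and 7.71 FPKM in Ctrl, 9.63, 9.002 and 8.99 FPKM in OGD and 15.9, 16.5 and 15.0 FPKM in OGD + A-485. It rose as well, 1.71-fold against OGD (log2 fold change 0.77, SE 0.08, adjusted p = 4.44e-05), with all OGD + A-485 libraries above the other 6, and 1.83-fold against Ctrl (log2 fold change 0.86, SE 0.08, adjusted p = 1.4e-05). Dtx3l and Parp9 share 458 exonic bases on opposite strands, so part of their reads cannot be assigned without strand. Against Ctrl, the call of Dtx3l (0.51) was lost without Ctrl library 2 (0.49) or OGD + A-485 library 2 (0.50), where Ctrl library 2 held 8.47 and the latter 12.8 FPKM, with a pseudocount of 1 (0.47), when FPKM were rescaled to total reads (0.40) and when the median of neighbouring genes was removed (0.32). Among the 9 other tested genes within 200 kb of Parp9, 2 were called higher with A-485 against OGD, which are Parp14 and Dtx3l, and 2 lower. Over all genes the shares were 12.2% and 13.4%, and a difference of this neighbourhood from all genes was not tested. Hspbap1, 168 kb away and chosen after its values were seen, fell by 1.45 on the log2 scale.

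**Figure D5:**
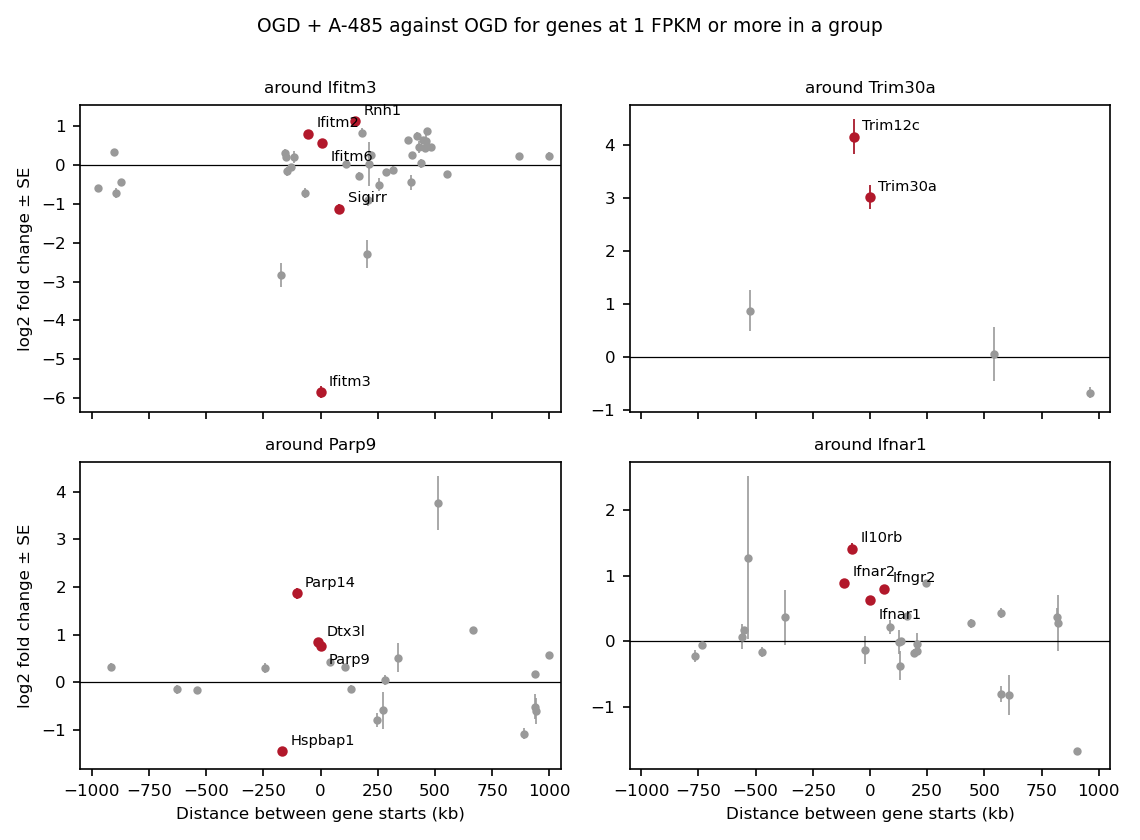
Log2 fold change in OGD + A-485 against OGD, with its standard error, of genes at 1 FPKM or more in a group, plotted by the distance in kb between their start and that of Ifitm3, Trim30a, Parp9 or Ifnar1. Ifitm3 at -5.86 is the lowest point of its panel, while Trim12c rises beside Trim30a and Parp14 and Dtx3l beside Parp9.

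Ifi27l2a, a small interferon-induced protein, measured 7.92, 6.82 and 7.87 FPKM in Ctrl, 8.65, 6.47 and 4.61 FPKM in OGD and 3.25, 3.42 and 2.85 FPKM in OGD + A-485. The OGD + A-485 libraries lay below all others, and the OGD libraries were widely spread. The fall was log2 fold change -0.99, SE 0.20, adjusted p = 0.00265 against OGD and log2 fold change -1.22, SE 0.20, adjusted p = 0.000598 against Ctrl. Cmpk2 and Mx2, a nucleotide kinase and a dynamin-like gene annotated here as a polymorphic pseudogene, were chosen after their values were seen and stayed under 1 FPKM. Cmpk2 was called higher with A-485 against OGD (1.32) and Mx2 lower (-1.02). Both calls were lost in several alternatives, among them a pseudocount of 1, where they were 0.30 and -0.28. Without OGD library 3, at 0.0512 and 0.413 FPKM, they were 1.25 and -0.99 and not called, and without OGD + A-485 library 2, at 0.411 and 0.140 FPKM, 1.17 and -1.02. The call of Mx2 against OGD was lost whichever library was left out, except OGD + A-485 library 1. In OGD against Ctrl, Cmpk2 was not called (log2 fold change -1.13, SE 0.34, adjusted p = 0.0254), but it was in 10 alternatives, among them quantile normalization (-1.31), rescaling to total reads (-1.17) and voom weights (-1.86).

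Among the GTPases, OGD was accompanied by lower levels of Irgm1 and Igtp, and A-485 by higher levels of Irgm1 and Gbp3 than in OGD. Of the 8, 5 were tested, and 2 of them, Irgm1 and Igtp, were called lower in OGD against Ctrl (40%, against 9.81% of all genes) and none higher (against 11.2%), with a median of -0.38, against 0.01 over all genes. Irgm1, which directs other immunity-related GTPases and autophagy, lies at chr11:48861968-48871683 and measured 2.94, 2.36 and 2.53 FPKM in Ctrl, 1.57, 1.26 and 1.46 FPKM in OGD and 2.50, 2.29 and 2.10 FPKM in OGD + A-485. The OGD libraries lay below all others, and Ctrl and OGD + A-485 overlapped. It fell with OGD (log2 fold change -0.83, SE 0.13, adjusted p = 0.000673) and rose with A-485 against OGD (log2 fold change 0.65, SE 0.13, adjusted p = 0.00228), while OGD + A-485 against Ctrl gave no call (log2 fold change -0.17, SE 0.13, adjusted p = 0.274). With a pseudocount of 1 the rise was 0.44 and was not called.

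Igtp, also an immunity-related GTPase, measured 3.29, 2.85 and 2.75 FPKM in Ctrl, 1.83, 1.63 and 1.93 FPKM in OGD and 2.74, 2.25 and 2.44 FPKM in OGD + A-485. OGD lay lowest and Ctrl highest, with no overlap between the 3 groups. The fall with OGD was log2 fold change -0.69, SE 0.11, adjusted p = 0.0011, which was -0.45 and not called when the median of neighbouring genes was removed. With A-485 against OGD the value of 0.44 was not called, but it was with quantile normalization (0.53) and without OGD + A-485 library 2, which held 2.25 FPKM (0.50). Igtp overlaps Irgm2 on the same strand by 162 exonic bases, and the sum of both genes was lower in every OGD library (2.74 to 2.94 FPKM) than in Ctrl (4.23 to 4.84) or OGD + A-485 (4.16 to 4.30).

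Ifi47, a further GTPase of this family, measured 1.88, 2.01 and 1.75 FPKM in Ctrl, 2.48, 2.42 and 2.18 FPKM in OGD and 3.29, 2.84 and 3.23 FPKM in OGD + A-485. The groups were ordered without overlap, from Ctrl through OGD to OGD + A-485. Only OGD + A-485 against Ctrl was called (log2 fold change 0.70, SE 0.10, adjusted p = 0.000276), and it was not when the median of neighbouring genes was removed (0.42). Gbp3, a guanylate-binding protein, measured 0.596, 0.903 and 0.605 FPKM in Ctrl, 0.553, 0.494 and 0.479 FPKM in OGD and 1.13, 1.07 and 1.17 FPKM in OGD + A-485. It was higher in every OGD + A-485 library than in any other and was called against OGD (log2 fold change 1.01, SE 0.19, adjusted p = 0.00208) and against Ctrl (log2 fold change 0.63, SE 0.19, adjusted p = 0.0197). With a pseudocount of 1 the first of these was 0.49 and not called. The second lost its call in nearly all alternatives, among them without Ctrl library 1 (0.54), which held 0.596 FPKM, or OGD + A-485 library 3 (0.60), which held 1.17 FPKM. Gbp7 was called in no comparison, at 0.588 to 0.834 FPKM.

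Set side by side, the type I targets and the GTPases both had medians below that of all genes in OGD against Ctrl (-0.30 and -0.38). With A-485 against OGD the medians were 0.09 and 0.44, and against Ctrl -0.34 and -0.12. All 5 tested GTPases had a positive fold change with A-485 against OGD, 2 of them called (40%, against 12.2% of all genes), while the 22 type I targets ranged from -5.86 to 3.02, with 14 positive. The difference between the lists was not tested, and the GTPase medians rest on 5 genes. The medians moved with the setting: without Ctrl library 2 that of the GTPases in OGD against Ctrl was -0.26, and without OGD + A-485 library 1 it was -0.03 against Ctrl. That of the type I targets with A-485 against OGD ran from -4.2e-06 (without OGD + A-485 library 1) to 0.16 (without OGD library 1).

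In FPKM, the 8 GTPases together reached 9.48, 8.92 and 8.49 in Ctrl, 7.04, 6.49 and 6.76 in OGD and 10.4, 9.39 and 9.76 in OGD + A-485. OGD lay below both other groups, which overlapped. The 27 type I targets summed to 335, 325 and 291 FPKM in Ctrl, 312, 276 and 302 in OGD and 268, 241 and 239 in OGD + A-485. Without Ifitm3 the sums were 259, 248 and 221, then 237, 207 and 235, then 267, 239.7 and 238 FPKM. Ctrl then overlapped with both other groups, and OGD lay just below OGD + A-485. Without Ifitm3 the sums averaged 243 FPKM in Ctrl, 226 in OGD and 248 in OGD + A-485. Bst2 alone, which was called in no comparison, made up 135, 127 and 134 FPKM of these.

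Of 21 genes listed for the production of interferon, 16 were tested, and 2 were called higher (12.5%, against 11.2% of all genes) and 3 lower (18.8%, against 9.81%) in OGD against Ctrl. Ticam1, the adaptor of Tlr3, measured 11.2, 11.0 and 9.45 FPKM in Ctrl, 19.8, 19.1 and 18.9 FPKM in OGD and 16.1, 12.8 and 14.5 FPKM in OGD + A-485. The groups did not overlap, with OGD highest and Ctrl lowest (log2 fold change 0.87, SE 0.09, adjusted p = 7.28e-05 for OGD against Ctrl). Myd88, the adaptor of most other Toll-like receptors, measured 32.1, 31.0 and 32.4 FPKM in Ctrl, 16.4, 14.8 and 15.6 FPKM in OGD and 19.2, 17.9 and 17.4 FPKM in OGD + A-485. Ctrl lay above both other groups, with a fall of 2.04-fold in OGD (log2 fold change -1.03, SE 0.05, adjusted p = 1.83e-06) and of 1.75-fold in OGD + A-485 (log2 fold change -0.81, SE 0.05, adjusted p = 1.91e-06). It shares 290 exonic bases with Acaa1a.

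With A-485 against OGD 4 of the 16 were called higher by limma (25.0%, against 12.2%) and 0 lower (against 13.4%), and against Ctrl 7 higher (43.8%, against 17.0%) and 1 lower (6.25%, against 16.6%). Tlr3, which senses double-stranded RNA in endosomes, measured 0.302, 0.418 and 0.463 FPKM in Ctrl, 0.181, 0.251 and 0.0819 FPKM in OGD and 1.14, 1.14 and 1.05 FPKM in OGD + A-485. The groups were separate, with OGD lowest and OGD + A-485 highest (log2 fold change 2.21, SE 0.29, adjusted p = 0.000235 against OGD). Ticam2, an adaptor of Tlr4, measured 0.972, 0.911 and 0.959 FPKM in Ctrl, 1.22, 1.54 and 1.09 FPKM in OGD and 3.22, 3.30 and 2.91 FPKM in OGD + A-485. OGD + A-485 lay above both other groups (log2 fold change 1.63, SE 0.14, adjusted p = 1.04e-05 against Ctrl), and 838 of its exonic bases are shared with Tmed7.

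Among the 9 genes listed as brakes on the response, 2 were called higher (22.2%, against 11.2% of all genes) and 1 lower (11.1%, against 9.81%) in OGD against Ctrl. OGD + A-485 against OGD gave 2 (22.2%, against 12.2%) and 1 (11.1%, against 13.4%), and OGD + A-485 against Ctrl 1 (11.1%, against 17.0%) and 2 (22.2%, against 16.6%). The list holds Isg20, which is known as an interferon-induced RNA exonuclease rather than as a brake, and it measured 5.39, 4.53 and 4.45 FPKM in Ctrl, 8.83, 7.805 and 7.84 FPKM in OGD and 1.29, 1.09 and 1.34 FPKM in OGD + A-485. OGD lay above Ctrl and OGD + A-485 far below both. Isg20 was 1 of the 2 genes of the list called higher in OGD against Ctrl. It was the 1 called lower in OGD + A-485 against OGD, and 1 of the 2 called lower against Ctrl. The rise with OGD was log2 fold change 0.76, SE 0.11, adjusted p = 0.000454, the fall with A-485 against OGD log2 fold change -2.63, SE 0.11, adjusted p = 2.85e-07, and that against Ctrl log2 fold change -1.87, SE 0.11, adjusted p = 9.71e-07.

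Irf2, a repressor that competes with Irf1, measured 4.14, 3.99 and 4.25 FPKM in Ctrl, 2.87, 2.96 and 2.51 FPKM in OGD and 4.63, 4.33 and 4.36 FPKM in OGD + A-485. OGD lay below both other groups. It fell with OGD (log2 fold change -0.56, SE 0.08, adjusted p = 0.000443), a call lost without OGD library 3 (-0.49) and with a pseudocount of 1 (-0.44), and rose with A-485 against OGD (log2 fold change 0.66, SE 0.08, adjusted p = 0.00013). Socs3, an inhibitor of cytokine receptors, measured 15.8, 15.1 and 13.7 FPKM in Ctrl, 20.1, 17.2 and 19.7 FPKM in OGD and 29.3, 27.1 and 29.0 FPKM in OGD + A-485. The groups were ordered from Ctrl through OGD to OGD + A-485 without overlap (log2 fold change 0.93, SE 0.07, adjusted p = 6.02e-06 against Ctrl). Socs1, the main inhibitor of interferon signalling among the Socs proteins, measured 0.824, 0.627 and 0.786 FPKM in Ctrl, 0.432, 0.475 and 0.587 FPKM in OGD and 0.306, 0.327 and 0.596 FPKM in OGD + A-485. It was called in no comparison, with log2 fold change -0.50, SE 0.26, adjusted p = 0.16 for OGD against Ctrl, log2 fold change -0.27, SE 0.26, adjusted p = 0.44 for OGD + A-485 against OGD and log2 fold change -0.77, SE 0.26, adjusted p = 0.0341 for OGD + A-485 against Ctrl. The last was called without OGD + A-485 library 3 (-1.02), which held 0.596 FPKM, when rescaled to total reads (-0.87), with voom weights on the recovered reads (-0.91), without a trend in the prior variance, and at an adjusted p-value under 0.05.

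Type I targets outside the 43 members, 50 in number with 37 tested, gave 4 higher and 4 lower in OGD against Ctrl (10.8% each, against 11.2% and 9.81% of all genes, so near the background). In OGD + A-485 against OGD 13 were called higher (35.1%, against 12.2%) and 4 lower (10.8%, against 13.4%), and in OGD + A-485 against Ctrl 12 higher (32.4%, against 17.0%) and 5 lower (13.5%, against 16.6%). Ccl5, a chemokine, measured 1.48, 1.83 and 1.09 FPKM in Ctrl, 3.11, 4.48 and 3.04 FPKM in OGD and 3.49, 2.24 and 3.32 FPKM in OGD + A-485. Ctrl lay below both other groups, which overlapped (log2 fold change 1.22, SE 0.24, adjusted p = 0.00268 for OGD against Ctrl). Parp12, a relative of Parp14, measured 8.79, 8.43 and 7.93 FPKM in Ctrl, 4.66, 4.52 and 4.68 FPKM in OGD and 6.06, 6.40 and 6.68 FPKM in OGD + A-485. OGD lay lowest and Ctrl highest, without overlap (log2 fold change -0.84, SE 0.06, adjusted p = 8.68e-06 for OGD against Ctrl).

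Slfn2, which limits the activation of immune cells, measured 11.5, 12.6 and 11.1 FPKM in Ctrl, 20.4, 19.5 and 19.4 FPKM in OGD and 79.8, 86.4 and 87.3 FPKM in OGD + A-485. The groups were separate, with a rise of 4.28-fold with A-485 against OGD (log2 fold change 2.09, SE 0.06, adjusted p = 3.52e-08). Cxcl10, a chemokine that attracts T cells, measured 2.36, 2.03 and 2.82 FPKM in Ctrl, 1.22, 1.57 and 1.55 FPKM in OGD and 0.213, 0.422 and 0.370 FPKM in OGD + A-485. The groups were ordered from Ctrl through OGD down to OGD + A-485, and the fall was log2 fold change -1.86, SE 0.22, adjusted p = 0.000143 against OGD and log2 fold change -2.55, SE 0.22, adjusted p = 1.37e-05 against Ctrl. Ifi211, of the family of Ifi204, measured 0.0419, 0.197 and 0.0346 FPKM in Ctrl, 0.440, 0.559 and 0.398 FPKM in OGD and 1.23, 1.38 and 1.32 FPKM in OGD + A-485. It rose from Ctrl to OGD + A-485 (log2 fold change 2.98, SE 0.33, adjusted p = 6.15e-05), with the same doubt about related copies as for Ifi204.

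Of 19 other interferon gamma targets, 6 were tested, with 1 called higher and 1 lower by limma in OGD against Ctrl (16.7% each, against 11.2% and 9.81% of all genes). OGD + A-485 against OGD gave 4 higher (66.7%, against 12.2%) and 0 lower (against 13.4%), and OGD + A-485 against Ctrl 3 higher (50%, against 17.0%) and 0 lower (against 16.6%). Psmb8, a subunit of the immunoproteasome, measured 14.1, 15.9 and 13.9 FPKM in Ctrl, 12.5, 10.5 and 12.7 FPKM in OGD and 26.9, 23.9 and 26.7 FPKM in OGD + A-485. OGD lay lowest and OGD + A-485 highest without overlap (log2 fold change 1.12, SE 0.09, adjusted p = 1.05e-05 against OGD). Psmb10, another such subunit, measured 35.9, 32.6 and 30.3 FPKM in Ctrl, 16.2, 12.7 and 15.6 FPKM in OGD and 28.9, 25.2 and 25.3 FPKM in OGD + A-485. Ctrl lay highest and OGD lowest (log2 fold change -1.15, SE 0.10, adjusted p = 3.14e-05 for OGD against Ctrl). Cd274, which encodes PD-L1, measured 4.05, 3.66 and 2.92 FPKM in Ctrl, 7.01, 8.06 and 6.34 FPKM in OGD and 8.96, 8.30 and 8.27 FPKM in OGD + A-485. The groups were ordered from Ctrl through OGD to OGD + A-485, with a rise of 2.01-fold in OGD against Ctrl and of 2.40-fold in OGD + A-485 against Ctrl (log2 fold change 1.25, SE 0.13, adjusted p = 3.18e-05).

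The members not yet described were called in no comparison. Oasl2, related to the oligoadenylate synthases, ranged from 0.253 to 0.752 FPKM, and Xaf1, which binds an inhibitor of cell death, from 0.379 to 0.821 FPKM. Of the untested type I targets, Ifit1 and Ifit3, which bind viral RNA, reached at most 0.310 and 0.563 FPKM. Mx1, Ifi44 and Zbp1 reached at most 0.0371, 0.0116 and 0.0350 FPKM, and the GTPases Gbp2 and Gbp5 at most 0.138 and 0.0186 FPKM.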

How the data were processed

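The submitters counted reads on genes with featureCounts 1.5.0-p3 on GRCm38, and the authors scaled the counts to FPKM, which were used as deposited. Whole read numbers were recovered from 100% of FPKM values above 0 to within 0.01 reads, with 12593250 to 16091038 reads on genes per library, so that 1 read on a gene of 1 kb equals 0.0618 to 0.0786 FPKM. Whether counting was stranded is not stated. GENCODE M21 gives the same coordinates for 98.3% of the genes.

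A limma 3.58.1 fit on the 3 group means with a trended prior variance used log2(FPKM + 0.1) of 16123 genes, those whose mean over the 9 libraries reached 0.2 FPKM, and the 2 thresholds of a call are those of the authors' methods. The fit was tried on simulated data first. The members and lists were chosen with earlier results of these data known. Values in every library are given for the largest rises and falls per role among called members, or called genes per pathway list, at 1 FPKM or more in a group, and for 12 genes whatever they showed (Ifnb1, Irf1, Irf7, Irf9, Stat2, Isg15, Irgm1, Ifnar1, Ifnar2, Ifngr1, Ifngr2, Socs1), and 1 further gene of that rule is not reported here. Alternatives changed the pseudocount, the filter, the scaling, the model, the thresholds, the neighbouring genes or left out a library. Promoter windows came from RefSeq annotation of GRCm38.p6, and the motifs were searched in them as the letters given above. Python 3.11.15, numpy 2.4.6, pandas 2.3.3, scipy 1.17.1, matplotlib 3.10.9 and R 4.3.3 were used.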

Additional observations from a re-analysis of the deposited data

How the results depend on the processing

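Given here, beside ranges over left-out libraries, are the values where a count of members differed by more than 1.5 times, or a median by more than the SD between libraries of a group of the list's median deviation. They are 20 of the list values, and the others varied within these bounds. The sign differed only for 1 median that came to lie at 0. The stricter threshold (adjusted p under 0.05 and a log2 fold change beyond 1) gave 0 members higher and 2 lower (4.89% and 2.05% of all genes) in OGD against Ctrl in the limma fit, where 4 and 9 were called at an unadjusted p under 0.01 (of the 9, Rtp4 stayed, and Cmpk2 was gained), 5 higher and 3 lower (5.47% and 6.36%) in OGD + A-485 against OGD, and 4 higher and 5 lower (9.30% and 7.46%, Rtp4 gained) in OGD + A-485 against Ctrl. It asks for a larger fold change and admits larger p-values. Removing the median of the 50 nearest genes left 6 of the 34 tested members higher in OGD + A-485 against Ctrl (against 16.1% of all genes). It moved the type I median in OGD + A-485 against OGD to 0.013 and the GTPase median to 0.32 there and to -0.29 against Ctrl. In OGD against Ctrl the GTPase median was -0.17 with a pseudocount of 1, -0.69 with a minimum mean of 1 FPKM, where fewer GTPases remain, and -0.55 with quantile normalization, and ran from -0.47 (without Ctrl library 1) to -0.26 (without Ctrl library 2). In OGD + A-485 against OGD it was 0.31 with a pseudocount of 1 and 0.53 with quantile normalization. Against Ctrl it was -0.22 when rescaled to total reads, and ran from -0.17 (without OGD + A-485 library 2) to -0.030 (without its library 1). The type I median in OGD against Ctrl ran from -0.47 (without OGD library 1) to -0.20 (without Ctrl library 1). That in OGD + A-485 against OGD ran from -4.2e-06 (without OGD + A-485 library 1) to 0.16 (without OGD library 1). Rescaling to total reads moved the median of all genes to -0.09 in OGD + A-485 against Ctrl. What caused these moves was not tested. For single genes, a call was gained in 58 cases and lost in 128, of which 52 came from the stricter threshold and 41 from a left-out library.

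A block on the library number gave 4 members higher and 9 lower in OGD against Ctrl (10.8% and 9.60% of all genes), 8 and 6 in OGD + A-485 against OGD (12% and 13.1%) and 9 and 10 in OGD + A-485 against Ctrl (16.7% and 16.3%). Irf7 was gained in the second, and Isg15 and Rtp4 in the third, and Cmpk2, Mx2 and Gbp3 were lost. Over all genes tested, libraries with the same number correlated at -0.046 to 0.039 (mean -0.002) after group means were removed. Not every library correlated best with its own number. A correlation over all genes cannot show whether libraries with the same number share a difference in the members, which was not tested. Of the 22 type I targets, library 1 was the highest of its group for 15 in Ctrl, 14 in OGD and 13 in OGD + A-485. The shares over all genes were 32.3%, 30.3% and 38.0%.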
